A study of Mus musculus with 8 samples.

Results

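The 51 genes described here encode the peptide hormones of the beta cell secretory granule, the enzymes and granins packed with them, the proteins of the granule membrane, the glucose sensing genes upstream of release, and the machinery that docks and fuses granules at the plasma membrane. They were chosen by name for these roles, with earlier results of these data known. All 51 had an entry among the 23100 genes of the count table. Of these, 49 passed the filter on low counts, which kept 14331 genes for testing. The 2 that did not pass, Gad1 and Cadps2, are described by their counts alone.

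The cells were Min6, a line from a mouse insulinoma, a tumour of pancreatic beta cells that still makes and releases insulin. In the Zac1 group they were transfected with pRK5-Zac1, an expression plasmid for Zac1, the zinc finger transcription factor that the imprinted gene Plagl1 encodes. In the control group they were transfected with pRK5-NLSeGFP, the same vector carrying a green fluorescent protein with a nuclear localisation signal. All cultures shared the medium (DMEM with fetal bovine serum and beta-mercaptoethanol), the Lipofectamine transfection, and RNA preparation 16 h later, from which stranded mRNA libraries were made. Each group held 4 libraries, numbered 1, 2, 3 and 5, which the series' design text calls biological replicates. Nothing in the labels says that a number marks a shared culture or day. The comparison is of overexpression in 1 tumour line at 1 time. The share of cells that took up a plasmid is not given in the sources used here. In RNA from whole cultures, fewer cells of a type and less RNA per cell cannot be told apart, nor can a change in few cells and a smaller change in all of them.

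In a beta cell, preproinsulin enters the endoplasmic reticulum, folds around its disulfide bonds, and is packed as proinsulin into granules with granins and processing enzymes, which cleave it into insulin and C-peptide. Zinc pumped into the granule lets insulin crystallise. Glucose enters through the transporter GLUT2, its metabolism closes the ATP-sensitive potassium channel, calcium flows in, and synaptotagmins then couple calcium to SNARE proteins, which fuse docked granules with the plasma membrane. Zac1 is known as a regulator of cell cycle arrest and of other imprinted genes.

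The libraries held 34.7 to 42.4 M counts in the Zac1 group and 30.5 to 35 M counts in the control group. Levels are given as CPM (counts per mega-count of the library, with totals scaled by TMM, the trimmed mean of M values). Plagl1, the transfected gene, had 5786, 4247, 4117 and 4368 CPM in Zac1 libraries 1, 2, 3 and 5, against 78.4, 67.7, 79.5 and 85.4 CPM in the controls with the same numbers. It was 59.6-fold higher with Zac1 (log2 fold change 5.90 ± 0.13 SE, adjusted p = 1.45e-09 by edgeR's quasi-likelihood test). The two-sided exact permutation p was 0.0286, the smallest that the 70 assignments of libraries to groups allow. Gene counts do not separate the plasmid's Plagl1 from the cells' own. Library 5 of each group stood apart for several members, and the fold changes it moved most are also given without it. Leaving out other libraries moved some members too, and those values are given in the last section. Across the table, 313 genes passed the adjusted p threshold of 0.05, 308 of them higher and 5 lower with Zac1. The labelled cell type was checked by 14 beta cell identity genes: all 14 were above 1 CPM, none was called, and they summed to 43881 to 50530 CPM in Zac1 libraries and 39406 to 56932 CPM in controls. Most of that sum was Ins1 and Ins2, which, like Ucn3, are also among the genes described here. The beta cell factor gene Mafa was low, at 6.02 CPM with Zac1 and 7.01 CPM in controls on average. Of the markers of other cell types, Gcg, the glucagon gene of alpha cells, stood at 1556 CPM with Zac1 and 1431 CPM in controls on average, and the highest of the other 45 markers, the endothelial gene Esam, averaged 13.0 CPM. Of these 45 markers, 7 averaged at least 1 CPM. The acinar genes Prss1 and Prss2, the fibroblast gene Lum and the endothelial gene Cdh5 had 0 counts in every library. Of the 10 fibroblast markers, Col1a1 was called, at 1.04 CPM with Zac1 and 0.334 CPM in controls on average, and their sum was 2.13 to 3.30 CPM with Zac1 and 1.96 to 2.68 CPM in controls.

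None of the 49 tested granule and exocytosis genes was called, against 2.18% of all tested genes. Under a stricter filter (average count of 50 or more), which all 49 passed, edgeR again called none of the 49. It called 0.81% of the 12219 genes kept by that filter. A count of 0 among 49 is near either share. By edgeR, 1 of the 49 was below an unadjusted p of 0.05 (Syt9, higher with Zac1), against 7.58% of all tested genes in either direction and 5.65% higher with Zac1. DESeq2 also called 0 of them, against 2.44% of all genes it tested, and limma-voom 0, against 2%, each with 2 members below an unadjusted p of 0.05. The smallest adjusted p among the members was 0.481. The groups did not overlap for 2 of the 49, Pcsk2 and Cpe, both lower with Zac1, which is 4.08% of the members against 5.79% of all tested genes in either direction and 1.4% in that direction.

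The fold changes were small and their intervals narrow. The log2 fold changes, Zac1 minus control, ran from -0.24 (Pcsk1n) to 0.20 (Syt9), with a median size of 0.051 regardless of sign, against 0.0601 over all tested genes. The 95% interval of the fold change lay within 1.2-fold in either direction for 37 of 49 members, or 75.5%, against 55.4% of all tested genes. It lay within 1.5-fold for 48 of 49, the exception being Pcsk1n, against 82.3% of all tested genes. The members were measured at greater depth than most genes, with a median control level of 293 CPM, against 22.4 CPM over the table, and a median SE on the log2 scale of 0.0614, against 0.0786. For 42 of the 49 the difference between groups was smaller than the pooled SD of the libraries within a group, or 85.7%, against 76.7% of all tested genes.

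**Figure D1:**
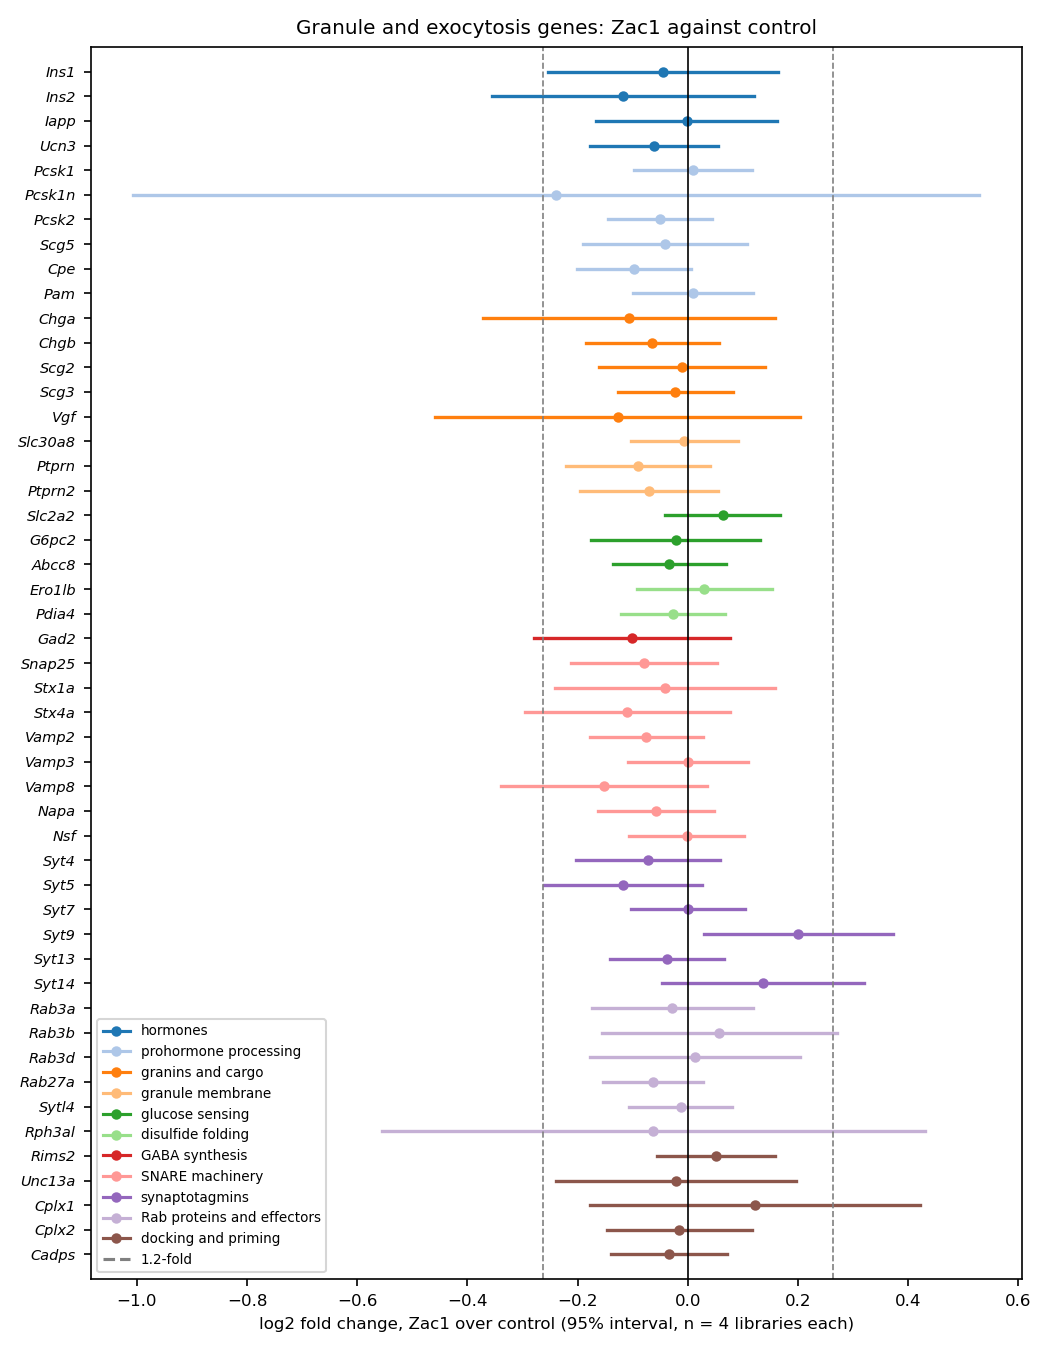
Log2 fold change (Zac1 minus control, x axis) of each of the 49 tested granule and exocytosis genes, grouped by role, with 95% intervals as bars; dashed lines mark 1.2-fold in either direction. For 37 genes the whole interval lies between the dashed lines, and Pcsk1n has the widest interval, from -1.01 to 0.53.

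The signs were uneven, though no single gene was called. With Zac1, 37 of the 49 fold changes were negative and 12 positive, or 75.5% negative, against 54.2% negative over all tested genes. The median log2 fold change was -0.0346 for the members and -0.00898 for all tested genes. When library totals alone set the scale, without TMM, 31 of 49 were negative, the members' median was -0.0164 and that of all tested genes 0.00941. Together the 51 genes took up 9.69%, 8.94%, 9.49% and 9.30% of all counts in Zac1 libraries 1, 2, 3 and 5, against 10.2%, 9.81%, 10.1% and 8.63% in the controls. These shares averaged 9.36 ± 0.321% with Zac1 and 9.67 ± 0.711% in controls (SD, n = 4 each), and the groups overlapped because control library 5 was the lowest of the 8.

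**Figure D2:**
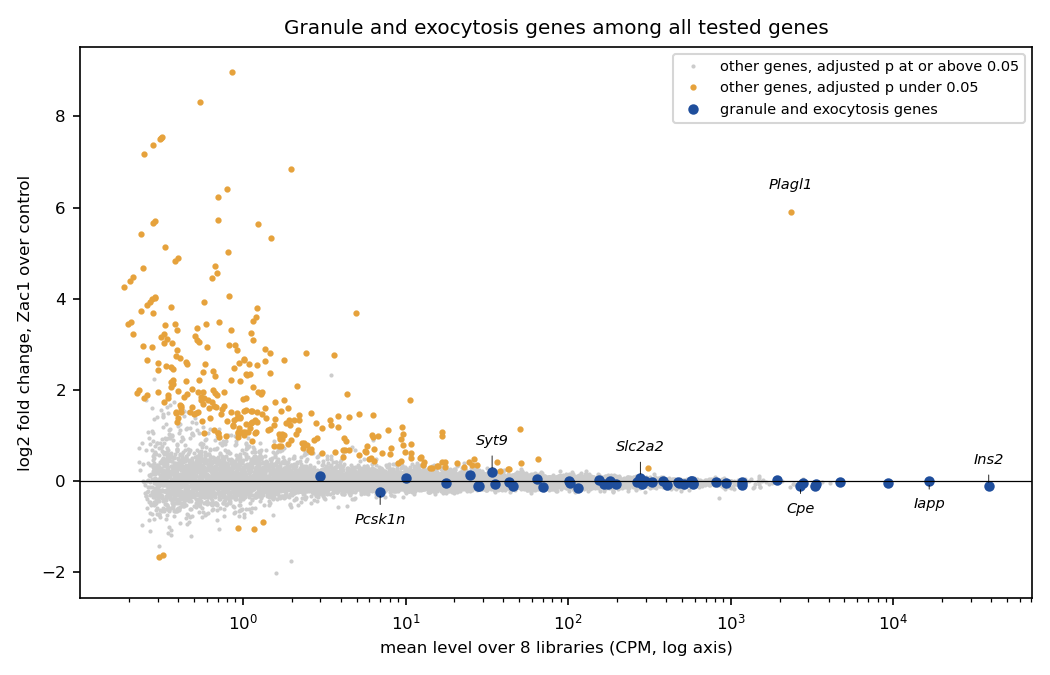
Mean level (CPM, log axis, x) against log2 fold change (Zac1 minus control, y) for the tested genes; gray points are genes not called, orange points called genes and blue points the granule and exocytosis genes. The blue points lie along 0, from -0.24 to 0.20, over the whole range of levels, while the called genes are nearly all above 0.

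Levels spanned several orders of magnitude within the set. Per kilobase of annotated exons, the most abundant members were Ins2 (28220 CPM per kb with Zac1 and 30606 CPM per kb in controls on average), Iapp (19776 and 19804 CPM per kb) and Ins1 (8603 and 8875 CPM per kb). Scg2, Chga, Cpe and Chgb came next, at 1867, 1809, 1311 and 1246 CPM per kb in controls. The order holds for the annotated exon lengths, and other lengths could change it. For Ins1 the length of 1062 bases is that of 1 annotated transcript. For Ins2 the 1312 bases include exons beyond a transcript of 478 bases. Gad1, which makes GABA, was near the limit of detection, with 16, 7, 8 and 15 counts in the Zac1 libraries and 6, 9, 11 and 1 in the controls. Cadps2, a priming factor, was likewise low, with 7, 4, 2 and 17 counts in the Zac1 libraries and 4, 4, 0 and 3 in the controls.

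The promoters of the members were searched because the transfected protein binds DNA. RefSeq windows (build GRCm38.p6, 250 bases before to 50 after each start) were at hand for 38 of the 51 genes, as 43 windows. The published Zac1 consensus, a run of G followed by a run of C that is spelled out in capitals below, was searched on both strands and lay in 1 of the 43 windows, or 2.33%, against 0.0852% of all 32851 windows. That window belongs to Ero1lb, the oxidoreductase that forms disulfide bonds in proinsulin. The bases before the start are shown 5′ to 3′, with the match in capitals, at chr13:12565633-12565882 on the plus strand.
Ero1lb: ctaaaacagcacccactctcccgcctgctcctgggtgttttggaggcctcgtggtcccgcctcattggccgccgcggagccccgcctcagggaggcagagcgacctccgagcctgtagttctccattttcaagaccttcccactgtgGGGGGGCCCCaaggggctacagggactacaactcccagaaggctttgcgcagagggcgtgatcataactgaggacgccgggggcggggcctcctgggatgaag

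Ero1lb had 2011, 1923, 1869 and 1950.0 CPM in Zac1 libraries 1, 2, 3 and 5, against 2041, 1931, 1704 and 1916 CPM in the controls. The groups overlapped, and the log2 fold change was 0.03 ± 0.06 (SE, 95% interval -0.09 to 0.15, adjusted p = 0.973 by edgeR). A match of letters is a description of the window and not a binding site.

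The palindromic cAMP response element TGACGTCA, bound by CREB family factors and known from genes of regulated secretion, lay in 4 of the 43 windows, or 9.3%, against 1.79% of all windows. The 4 genes are Chgb and Scg2, which encode granins, Pcsk1, which encodes the proinsulin convertase PC1/3, and Napa, which encodes the SNARE recycling factor alpha-SNAP. The insulin gene E-box GCCATCTG, searched on both strands, lay in 2 windows (those of Ins1 and Cadps), or 4.65%, against 1.32% of all windows. The 40 bases around the response element, with the element in capitals and read in the direction of the gene, come from chr2:132781554-132781593 (plus strand) for Chgb, chr7:16098557-16098596 (plus) for Napa, chr13:75089763-75089802 (plus) for Pcsk1 and chr1:79440071-79440110 (minus) for Scg2.
Chgb: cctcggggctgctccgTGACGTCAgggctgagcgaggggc
Napa: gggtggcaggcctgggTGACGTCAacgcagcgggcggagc
Pcsk1: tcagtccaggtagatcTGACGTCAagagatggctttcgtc
Scg2: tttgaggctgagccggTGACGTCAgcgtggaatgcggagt

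The log2 fold changes of these 4 genes were -0.06 for Chgb, -0.06 for Napa, 0.01 for Pcsk1 and -0.01 for Scg2, each with an SE of 0.05 to 0.07. None was called.

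None of the 4 hormone genes passed the test. Ins2, the ancestral mouse insulin gene, had 38615, 34229, 40459 and 34796 CPM in Zac1 libraries 1, 2, 3 and 5, against 42198, 41719, 46106 and 30599 CPM in controls. Ins1, the rodent retroposed copy, had 10184, 8405, 8859 and 9097 CPM with Zac1, against 10845, 9723, 9550.3 and 7584 CPM in controls. For both genes control library 5 was the lowest of the 8 libraries. For Ins2 the groups overlapped through that library alone. For Ins1, Zac1 library 1 also lay above control libraries 2 and 3. The log2 fold changes were -0.12 ± 0.11 for Ins2 (95% interval -0.36 to 0.12, adjusted p = 0.938) and -0.04 ± 0.10 for Ins1 (-0.25 to 0.16, adjusted p = 0.977). Without control library 5 they were -0.22 ± 0.07 for Ins2 (adjusted p = 0.216) and -0.13 ± 0.07 for Ins1 (adjusted p = 0.644). Without both libraries numbered 5 they were -0.19 ± 0.06 (adjusted p = 0.241) and -0.13 ± 0.07 (adjusted p = 0.71). Other libraries moved the values the other way: Ins2 was -0.04 ± 0.11 without control library 3, and Ins1 was 0.03 ± 0.09 without control library 1 and -0.01 ± 0.10 without Zac1 library 2. Neither gene was called in any of these fits, and over the 8 fits with 1 library left out Ins2 stayed negative while Ins1 changed sign once. The Ins1 and Ins2 transcripts matched at 86.8% of 479 aligned bases, with a longest shared run of 56 bases, so the division of reads between the pair is uncertain. Their joint share of all counts does not depend on that division, though it leaves out any reads counted for neither gene. It was 4.91%, 4.33%, 4.97% and 4.37% in Zac1 libraries, against 5.23%, 5.17%, 5.47% and 3.82% in controls.

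Iapp, which encodes amylin, a peptide released with insulin, had 16396, 15319, 15299 and 19353 CPM with Zac1, against 17451, 15321, 16400.2 and 17291 CPM in controls. Its means of 16592 ± 1911 and 16616 ± 979 CPM (SD, n = 4 each) were almost equal, with a 95% interval of the log2 fold change from -0.17 to 0.16. Without Zac1 library 5, the highest, it was -0.08 ± 0.06. Ucn3, urocortin 3, a late marker of beta cell maturation in mouse, had 180.1, 201, 181 and 207 CPM with Zac1, against 202, 191, 204 and 204 CPM in controls. Zac1 libraries 1 and 3 lay below every control and Zac1 library 5 above every one, and the log2 fold change was -0.06 ± 0.05 (adjusted p = 0.933).

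**Figure D3:**
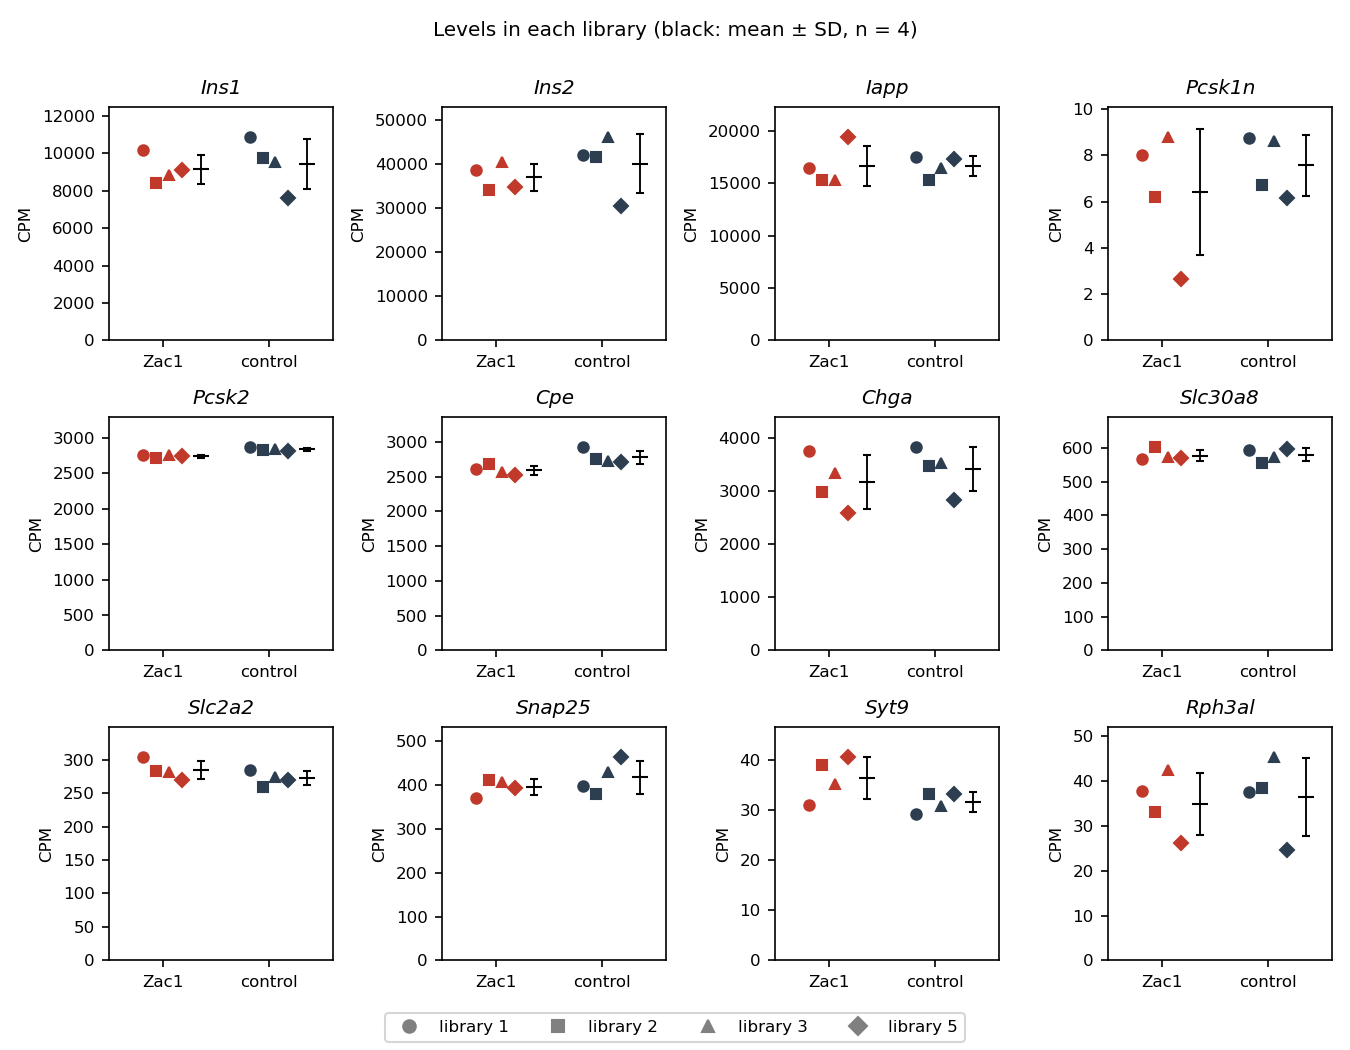
Levels (CPM, y axis of each panel) of 12 members in the 4 Zac1 libraries (left) and the 4 control libraries (right); symbols mark the library number and black bars the mean ± SD. The groups overlap in every panel but those of Pcsk2 and Cpe, and library 5 is the lowest of both groups for Pcsk1n, Cpe, Chga and Rph3al.

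Among the processing enzymes, the members whose groups did not overlap were the convertase PC2 and carboxypeptidase E, which removes the basic residues that the convertases leave. Cpe had 2603, 2678, 2567 and 2526 CPM with Zac1, against 2919, 2752, 2718 and 2713 CPM in controls. Every Zac1 library lay below every control, with a fitted change of -6.55% (95% interval -13% to 0.346%), a log2 fold change of -0.10 ± 0.05 and an adjusted p of 0.702. Pcsk2 had 2756, 2709.8, 2759 and 2736 CPM with Zac1, against 2863, 2834, 2844 and 2806 CPM in controls. Its libraries were the tightest of all 49 members by the pooled SD of log2 levels within groups (0.012). In CPM, the SD was 22.7 around 2740.3 in Zac1 libraries and 23.7 around 2837 in controls. In the Zac1 group alone Syt13 was tighter, with a log2 SD of 0.0066 against 0.012. The log2 fold change of -0.05 ± 0.04 had an adjusted p of 0.933. In edgeR's test the spread of a gene is drawn towards that of other genes at its level.

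Pcsk1, the convertase PC1/3, had 565, 572, 543 and 591 CPM with Zac1, against 549, 549, 549.6 and 607 CPM in controls. The groups overlapped and the log2 fold change was 0.01 ± 0.05 (95% interval -0.10 to 0.12). Pcsk1n, which encodes proSAAS, an inhibitor of PC1/3, was low and unsteady, at 8.01, 6.18, 8.77 and 2.67 CPM with Zac1, against 8.74, 6.73, 8.6 and 6.15 CPM in controls. Its log2 fold change of -0.24 ± 0.33 (adjusted p = 0.962) rested on Zac1 library 5 and was 0.03 ± 0.14 without it. Its exons share 135 bases with Eras on the opposite strand. Scg5, the chaperone 7B2 of PC2, had log2 -0.04 ± 0.07, and Pam, which amidates peptide ends, 0.01 ± 0.05.

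The granins, acidic proteins that condense the cargo and help granules form, were all slightly negative, and none of the 5 was called. Chga had 3757, 2979.7, 3336 and 2579.8 CPM with Zac1, against 3815, 3465, 3522 and 2823 CPM in controls. Library 1 was the highest and library 5 the lowest in both groups, and the log2 fold change was -0.11 ± 0.12 (95% interval -0.37 to 0.16, adjusted p = 0.954). It was -0.01 ± 0.10 without Zac1 library 5, -0.18 ± 0.11 without control library 5 and -0.09 ± 0.07 without both. Chgb had 3355, 3338, 3012 and 3358 CPM with Zac1, against 3591, 3400.1, 3176 and 3493 CPM in controls. Library 3 was the lowest in both groups, the groups overlapped, and the log2 fold change was -0.06 ± 0.06 (adjusted p = 0.932). Vgf, which encodes a precursor of several neuropeptides, had log2 -0.13 ± 0.14, with 50.9 to 82.1 CPM in Zac1 libraries and 66.7 to 81.7 CPM in controls, and -0.01 ± 0.10 without Zac1 library 5. Scg2 and Scg3 had log2 -0.01 ± 0.07 and -0.02 ± 0.05. Of the 5, Scg2 changed sign in some alternative runs, with 0.01 when library totals alone set the scale and 0.04 without Zac1 library 3. The median of the 5 was -0.0644.

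In the granule membrane, Slc30a8 encodes ZnT8, the zinc importer of the granule, and Ptprn and Ptprn2 encode the phosphatase-like antigens IA-2 and phogrin. Slc30a8 had 566, 601, 571 and 569.9 CPM with Zac1, against 593, 555, 572 and 597 CPM in controls. The groups overlapped, and its interval was among the narrow ones, from -0.10 to 0.09 on the log2 scale. Ptprn had 1232, 1101, 1197 and 999.5 CPM with Zac1, against 1213, 1215, 1223 and 1172 CPM in controls. Zac1 libraries 2 and 5 were below every control and library 1 above every one (log2 -0.09 ± 0.06, adjusted p = 0.864). Without Zac1 library 5 the log2 fold change of Ptprn was -0.03 ± 0.05. Ptprn2 had log2 -0.07 ± 0.06.

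Of the glucose sensing genes, Slc2a2, which encodes GLUT2, was slightly positive. It had 303, 283, 281 and 269.7 CPM with Zac1, against 284, 259, 274 and 270.2 CPM in controls, with the lowest Zac1 library inside the control range (log2 0.06 ± 0.05, 95% interval -0.04 to 0.17, adjusted p = 0.911). G6pc2, the islet glucose-6-phosphatase that opposes glucokinase, had 1185, 1174, 1165 and 1117 CPM with Zac1, against 1358, 1129, 1021 and 1204 CPM in controls, whose range held all 4 Zac1 libraries (log2 -0.02 ± 0.07, adjusted p = 0.984). Abcc8, the SUR1 subunit of the ATP-sensitive potassium channel, had 596, 577, 574 and 564 CPM with Zac1, against 603, 627, 568 and 568 CPM in controls (log2 -0.03 ± 0.05, adjusted p = 0.962). For Abcc8, Zac1 library 5 lay below every control and the other 3 inside the control range. The disulfide isomerase gene Pdia4, which folds secretory proteins in the endoplasmic reticulum, had log2 -0.03 ± 0.04. Gad2, the GABA-synthesising enzyme known as a beta cell autoantigen, had 25.9, 30.1, 25.5 and 26.8 CPM with Zac1, against 29.2, 33.4, 28.3 and 25.1 CPM in controls (log2 -0.10 ± 0.08, adjusted p = 0.928), and the groups overlapped.

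The SNARE genes leaned to the negative side, with 7 of 8 fold changes below 0 (87.5%, against 54.2% of all tested genes). Their median log2 was -0.0664, and none was called. Of the 7, Nsf and Stx1a changed sign in some alternative runs. Snap25, the plasma membrane SNARE with a pair of SNARE motifs, had 369, 411, 407 and 393 CPM with Zac1, against 397, 379, 430.3 and 463 CPM in controls (log2 -0.08 ± 0.06, 95% interval -0.21 to 0.05, adjusted p = 0.914). Vamp2, the granule SNARE of regulated insulin release, had 176, 173, 168 and 169.9 CPM with Zac1, against 193, 184, 175 and 171 CPM in controls (log2 -0.08 ± 0.05, 95% interval -0.18 to 0.03, adjusted p = 0.844). In both genes the highest 2 libraries were controls, and the ranges overlapped. For Snap25 the log2 fold change was -0.02 ± 0.06 without control library 5, and the same without both libraries numbered 5. Stx1a, the plasma membrane syntaxin of the same complex, was low, at 19.6, 17.7, 18.2 and 14.2 CPM with Zac1, against 18.4, 18.8, 18.4 and 16 CPM in controls (log2 -0.04 ± 0.09, adjusted p = 0.978). Library 5 was the lowest in both groups, and without that of the Zac1 group the log2 fold change was 0.05 ± 0.07.

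Vamp8, a SNARE of newcomer granules and of endosomes, had 123, 115, 103 and 96.2 CPM with Zac1, against 136, 112, 128 and 109.6 CPM in controls (log2 -0.15 ± 0.09, 95% interval -0.34 to 0.04, adjusted p = 0.8). Stx4a, a syntaxin linked to sustained insulin release, had 32, 26.7, 26.8 and 23 CPM with Zac1, against 30.4, 29.8, 30 and 26.8 CPM in controls (log2 -0.11 ± 0.09, adjusted p = 0.917). For both, Zac1 library 5 was the lowest of the 8, and without it their log2 fold changes were -0.09 and -0.03. Leaving out Zac1 library 1 moved Stx4a the other way, to -0.20 (adjusted p = 0.437 by edgeR). Vamp3, a SNARE of recycling vesicles, and the SNARE-dissociating ATPase gene Nsf had log2 0.00 ± 0.05 and -0.00 ± 0.05, and its adaptor gene Napa -0.06 ± 0.05.

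Syt9, a calcium sensor of insulin release, had the smallest p of all members. It had 31, 39, 35.2 and 40.5 CPM in Zac1 libraries 1, 2, 3 and 5, against 29.3, 33.3, 30.9 and 33.3 CPM in controls. Libraries 2, 3 and 5 of the Zac1 group lay above every control and library 1 did not, and library 1 was the lowest of both groups. The level averaged 36.5 ± 4.23 CPM with Zac1 and 31.7 ± 1.96 CPM in controls (SD, n = 4 each), 14.9% higher in the fit (95% interval 2.06% to 29.5%). The log2 fold change of 0.20 ± 0.08 had a p of 0.0248 by edgeR, which did not hold after adjustment over all tested genes (adjusted p = 0.481). With 1 library left out it ran from 0.15 ± 0.08 (without Zac1 library 5, adjusted p = 0.696) to 0.27 ± 0.07 (without Zac1 library 1, adjusted p = 0.0883). Without Zac1 library 2 or 5, or control library 1 or 3, the unadjusted p of Syt9 was no longer below 0.05.

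Of the other 5 tested synaptotagmins none was below an unadjusted p of 0.05. Syt5 had 42.4, 43.4, 46.3 and 43.9 CPM with Zac1, against 42.3, 53.2, 46 and 49.4 CPM in controls (log2 -0.12 ± 0.07, adjusted p = 0.792). Its control libraries spanned the whole Zac1 range. Syt14, a synaptotagmin that lacks calcium binding, had 23.5, 28.1, 27.1 and 25.5 CPM with Zac1, against 19.7, 24.4, 25.6 and 25.1 CPM in controls (log2 0.14 ± 0.09, adjusted p = 0.839), with library 1 the lowest in both groups. Syt7, a high-affinity calcium sensor of beta cell granules, had 299 ± 14.4 CPM with Zac1 and 299 ± 10.5 CPM in controls (SD, n = 4 each), and a log2 fold change of 0.00 ± 0.05. Syt4 and Syt13, atypical synaptotagmins present in islets, had log2 -0.07 ± 0.06 and -0.04 ± 0.05, and that of Syt4 was -0.01 ± 0.05 without control library 5. Exons of Syt4 share 566 bases with Gm26658 on the opposite strand.

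The Rab GTPases, which tether granules, and their effectors showed differences of similar size. Rab27a, the main granule Rab of beta cells, had 273, 283, 284 and 273 CPM with Zac1, against 289, 298, 293 and 282 CPM in controls (log2 -0.06 ± 0.04, 95% interval -0.15 to 0.03, adjusted p = 0.864). Only the lowest control lay within the Zac1 range. Rab3a, a granule Rab shared with synaptic vesicles, had 46.9, 41.2, 43.1 and 40.5 CPM with Zac1, against 45.2, 48.2, 41 and 40.5 CPM in controls (log2 -0.03 ± 0.07, adjusted p = 0.98). The groups covered nearly the same range, and its exons share 29 bases with Mpv17l2 on the opposite strand. Rab3b and Rab3d had log2 0.06 ± 0.10 and 0.01 ± 0.09, and exons of Rab3b share 317 bases with 8030443G20Rik on the opposite strand. The Rab27a effector Sytl4 (granuphilin), which docks granules, had log2 -0.01 ± 0.04.

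Rph3al (Noc2), an effector of Rab3 and Rab27, varied more between libraries than between groups. It had 37.8, 33.1, 42.5 and 26.2 CPM with Zac1, against 37.6, 38.4, 45.2 and 24.5 CPM in controls. Library 3 was the highest and library 5 the lowest in both groups, and the log2 fold change was -0.06 ± 0.21. It was 0.06 ± 0.21 without Zac1 library 5, -0.20 ± 0.15 without control library 5 and -0.09 ± 0.09 without both (adjusted p = 0.895).

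The docking and priming genes lay close to 0. Unc13a, which encodes the priming factor Munc13-1, had 384, 316, 327 and 272 CPM with Zac1, against 370.4, 313, 339 and 296 CPM in controls (log2 -0.02 ± 0.10). Library 1 was the highest and library 5 the lowest in both groups. Exons of Unc13a share 495 bases with Colgalt1 on the opposite strand. Cadps, the dense-core vesicle priming factor CAPS1, had 97.2, 102, 102 and 102 CPM with Zac1, against 101, 101, 100.1 and 112 CPM in controls (log2 -0.03 ± 0.05). Rims2, an active zone scaffold that binds Rab3, had log2 0.05 ± 0.05. Of the complexins, which clamp and help the SNARE complex, Cplx2 had 472 ± 18.3 CPM with Zac1 and 477 ± 44.3 CPM in controls, and the neuronal Cplx1 3.09 ± 0.493 CPM with Zac1 and 2.85 ± 0.156 CPM in controls (SD, n = 4 each).

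Some members ranked the libraries alike in both groups. Library 1 was the highest of both groups for 15 of 49 members, or 30.6%, against 11% of all tested genes, among them Ins1, Chga, Slc2a2, G6pc2, Vamp2 and Unc13a. Library 5 was the lowest of both groups for 15 of 49 members, or 30.6%, against 17.8% of all tested genes, among them Cpe, Chga, Ptprn, Stx1a, Rab3a and Rph3al. It was the highest of both for 5, namely Ucn3, Pcsk1, Scg2, Syt4 and Rims2, which is 10.2% of the members against 16% of all tested genes. Other positions were below or near the share over the table: library 1 was the lowest of both for 10.2% of members against 12.7% of all tested genes, library 2 the lowest for 0% against 4.23%, and library 3 the highest for 4.08% against 8.43%. Library 2 was the highest for 6.12% against 4.98%, and library 3 the lowest for 12.2% against 5.79%. Relative to the mean of the other 3 libraries of its group on the log2 scale, library 5 stood at -0.37 with Zac1 and -0.35 in controls for Chga, and at -0.52 with Zac1 and -0.72 in controls for Rph3al. For the insulin genes library 5 was low mainly in the control group. It stood at -0.11 with Zac1 and -0.50 in controls for Ins2, and at -0.004 with Zac1 and -0.40 in controls for Ins1. Without both libraries numbered 5 no member was called. The members share libraries, so these shares are a description.

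**Figure D4:**
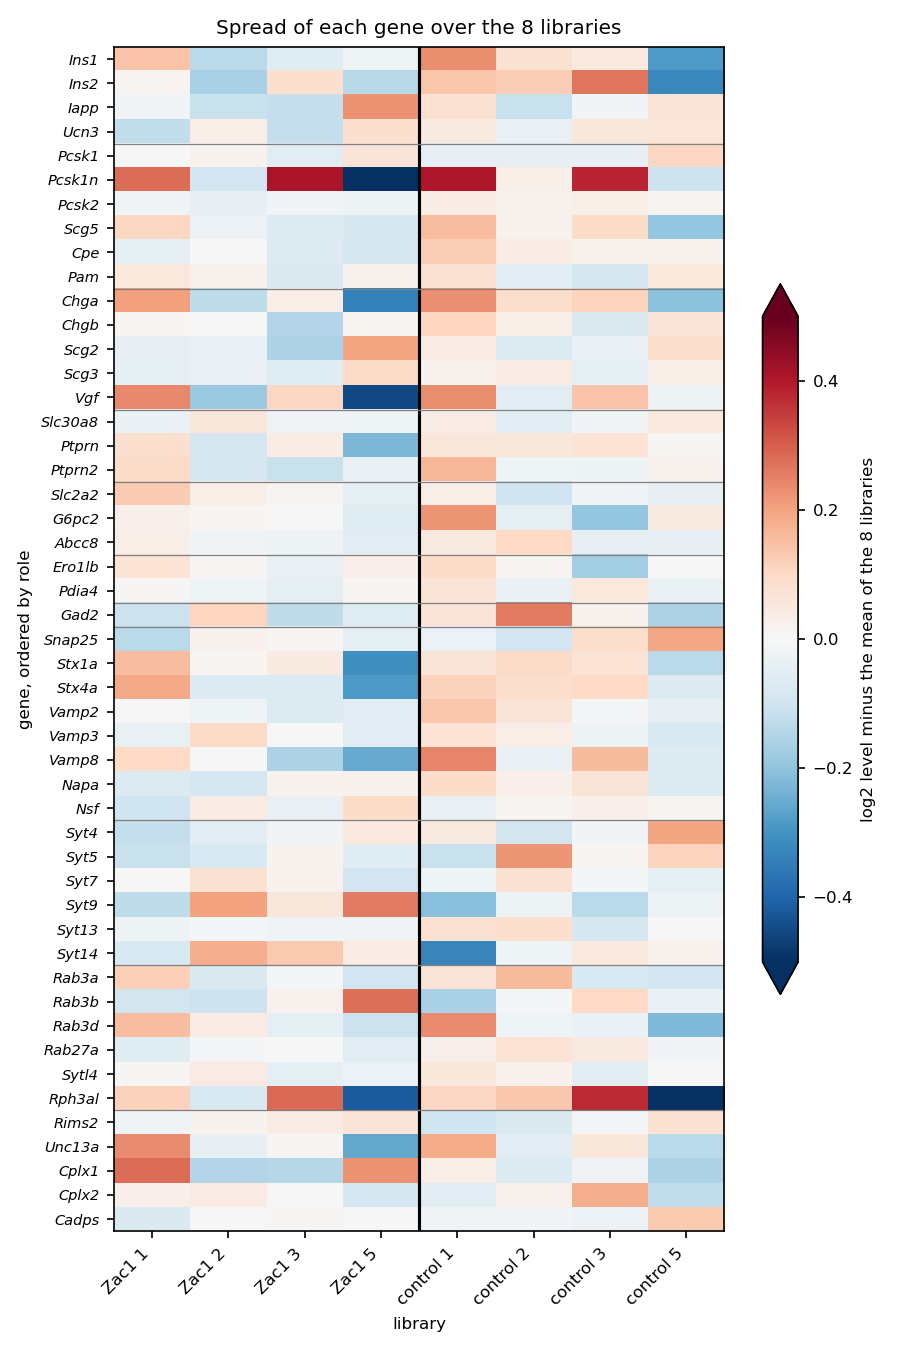
Deviation of each library from the mean of all 8 (log2 scale, colour, cut at 0.5 in either direction) for the 49 tested members in rows, with Zac1 libraries left and controls right. Library 5 is the lowest of both groups in 15 rows, and the rows of Pcsk2 and Cpe are those with every Zac1 library below every control.

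Genes of the same pathways outside the 51 were not called by edgeR either, and as a whole their signs were split as over the table. Of 152 genes on lists of other secretion genes, granule formation, glucose coupling and insulin folding, 141 were tested, and edgeR called none, against 2.18% of all tested genes, with 5 below an unadjusted p of 0.05 (3 higher and 2 lower), against 7.58%. limma-voom called 0 of them and DESeq2 called 1, Dnm1. Under the stricter filter edgeR called none of those that passed it, against 0.81% of all genes kept. Of the 141, 53.9% had a negative fold change, against 54.2% of all tested genes, with 41.4% for other secretion genes, 69.7% for granule formation, 50% for glucose coupling and 81.2% for insulin folding. The medians of the log2 fold change were 0.00974 for other secretion genes, -0.0184 for granule formation, -0.0078 for glucose coupling and -0.0687 for insulin folding. Dnm1, the dynamin that cuts endocytic vesicles free, had 22.4, 18.9, 17.8 and 16.0 CPM with Zac1, against 16.8, 15.3, 12.3 and 12.2 CPM in controls. Zac1 libraries 1, 2 and 3 lay above every control and library 5 did not, and the log2 fold change was 0.41 ± 0.12 (adjusted p = 0.172). Syt1, the fast calcium sensor of neurons, did not overlap, with 22.0, 24.0, 23.4 and 24.0 CPM with Zac1, against 24.1, 26.6, 25.5 and 26.5 CPM in controls (log2 -0.14 ± 0.06, adjusted p = 0.623).

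For granule formation the smallest p belonged to Atp6v1h, a subunit of the proton pump that acidifies granules, and Resp18, a granule protein related to Ptprn, both with log2 -0.10 ± 0.05 (adjusted p = 0.735 and 0.752). For glucose coupling they belonged to Cacna1d, a pore subunit of L-type calcium channels, with log2 0.17 ± 0.06 (adjusted p = 0.318), and the protein kinase C gene Prkcb. Prkcb had 9.11, 9.7, 8.79 and 11.1 CPM with Zac1, against 7.43, 8.61, 8.76 and 7.62 CPM in controls. Its groups narrowly did not overlap, and the log2 fold change was 0.25 ± 0.10 (adjusted p = 0.448). For insulin folding they belonged to Ssr1, a subunit of the translocon-associated complex, with log2 -0.10 ± 0.05 (adjusted p = 0.721), and the chaperone partner gene Sdf2l1, with log2 -0.15 ± 0.08 (adjusted p = 0.752).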

How the data were processed

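RNA from 8 libraries of transfected Min6 cells, 4 per group, was analysed from 1 table of raw counts per gene that the authors deposited. The submitters' processing notes name HTSeq 0.6.1p1, Bowtie2 2.2.8, TopHat2 2.1.1, bcl2fastq 2.17 and FastQC, and the build mm9. As the annotation and strand setting were not given in the sources used, genes whose exons overlap, and near-identical genes, are uncertain. All 8 columns of values matched a sample title.

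Genes were kept by filterByExpr (14331 of 23100), scaled by TMM and tested by edgeR 4.0.16 in R 4.3.3 (robust quasi-likelihood F test, group as the only term, Benjamini-Hochberg adjustment over all tested genes, threshold 0.05). Log2 fold changes are those of Zac1 over control, with SEs derived from the F statistic. CPM were computed here from the deposited counts. Alternatives used DESeq2 1.42.0 and limma 3.58.1 (voom), other scalings and filters, the replicate number as a block, and each library left out. The steps were checked on simulated counts. Replicates differed by 8.418 to 28.23 times the counting variance (chi-square per degree of freedom), so none was a copy. P-values of the main fit set the difference between groups against the spread between these samples, with the libraries taken as independent.

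The members and the other lists were chosen with earlier results of these data known. Genes given in full were Plagl1, any called member, the 12 members with the smallest p, a set of core granule genes whatever their p, and, per other list, the 2 with the smallest p. Pcsk1n, Vgf, Rph3al, Unc13a, Cadps and the genes with a promoter match were added after their values were seen. Exon lengths and overlaps came from GENCODE vM21 (GRCm38, another build than mm9), and promoters from RefSeq, matched by Entrez ID.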

Additional observations from a re-analysis of the deposited data

Results flagged for a closer look

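In 98 tests of single members within a group of 4 libraries, 8 found 1 library apart from the other 3, by Dixon's test at the 95% level. Chance alone gives about 1 in 20. In the Zac1 group these were Chgb in library 3 (3012 CPM, against 3338 to 3358 CPM in the other 3), Scg3 in library 5 (867 CPM, against 777 to 791 CPM), Slc30a8 in library 2 (601 CPM, against 566 to 571 CPM) and Cadps in library 1 (97.2 CPM, against 102 CPM in each of the others). In the control group they were Ucn3 in library 2 (191 CPM, against 202 to 204 CPM), Pcsk1 in library 5 (607 CPM, against 549 to 549.6 CPM), Stx1a in library 5 (16 CPM, against 18.4 to 18.8 CPM) and Cadps in library 5 (112 CPM, against 100.1 to 101 CPM). Library 5 gave 4 of the 8.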

How the results depend on the processing

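The count of called members was 0 in every alternative run but the replicate block. Over all tested genes, every Zac1 library correlated best with the control of its own number, a hint from the data and not the design. These correlations were 0.291, 0.048, 0.143 and 0.292 for libraries 1, 2, 3 and 5. Over the members they were 0.729, 0.0886, 0.579 and 0.567, and there Zac1 library 2 correlated best with control library 5. As 1 of the 4 correlations over all tested genes was 0.048, the numbers were not taken as pairs. With the replicate block, edgeR called 628 genes in the whole table (4.38%, 512 higher and 116 lower). Among them were 1 member (Syt9, log2 0.20 ± 0.05, adjusted p = 0.0214) and 3 of the other pathway genes (Dnm1, adjusted p = 5.27e-05, Cacna1d, adjusted p = 0.0288, and Sdf2l1, adjusted p = 0.0224). In that fit 8 members were below an unadjusted p of 0.05, against 1 in the main fit, both by edgeR. The share of all tested genes below that p with the block was not counted. SEs were smaller for members whose libraries ranked alike in both groups, with 0.05 for Rph3al and 0.04 for Chga, against 0.21 and 0.12 in the main fit. The whole-table count was 313 as reported, 99 of 12219 genes under a stricter filter (average count 50 or more), and 262 to 362 with 1 library left out. DESeq2 called 1 of the other pathway genes, and leaving out 1 library gave 0 to 1 (Dnm1, without Zac1 library 5). Of 833 member values over 17 alternatives, 825 stayed within 1 SE, 7 moved further without a call and 1 was called (Syt9). Of the 7, those of Ptprn, Snap25 and Syt4 came from leaving out libraries numbered 5. The rest came from other libraries: G6pc2 was 0.06 and Rab3d 0.11 without control library 1. Cplx2 was 0.05 without control library 3, and Stx4a -0.20 without Zac1 library 1. The sign changed in at least 1 alternative for 23 of 49 members and in none for 26. With 1 library left out, the members' median log2 ran from -0.0443 to -0.0148, and 30 to 39 members were negative over all alternatives. Counts near 0 limit Gad1 and Cadps2, and the interval of Pcsk1n rests on Zac1 library 5. No member is shown to be unchanged: the intervals give the sizes the data allow.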
